A study of Mus musculus with 6 samples.

Results

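Metalloproteinases and their tissue inhibitors were followed as a set of 10 genes: the inhibitors Timp1, Timp2 and Timp3, the matrix metalloproteinases Mmp2, Mmp14 and Mmp15, the secreted proteases Adamts1 and Adamts9, and the membrane proteases Adam15 and Adam17. Of these, 9 had a probe set that the platform's annotation gave to that gene alone, with 27 such probe sets among 45037, and 9 genes among 18193 tested. Mmp15 was not analysed here. Expression was measured on 6 Affymetrix 430 2.0 arrays, each carrying RNA of cells sorted from the pooled fore and hind limbs of a litter of mice at postnatal day 3. One population (Tie2-positive below) was sorted, by its title, as lacking the leukocyte antigen CD45 and the erythroid antigen Ter119, as low for integrin alpha V (Itgav) and as positive for the angiopoietin receptor Tie2 (Tek). The other (Tie2-negative below) lacked all 4 of these antigens by its title, and each population had 3 arrays. The labels give every sample as wild type, while the growth protocol speaks of GFP-labelled mice, and neither population received a treatment. Whether replicates are different litters is not stated in the labels. The p-values therefore reflect only how far these samples spread, and that spread may be technical.

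Matrix metalloproteinases (MMPs) are zinc enzymes that cut collagens, laminins and other matrix proteins. ADAM proteases sit in the cell membrane and release the outer parts of surface proteins, and ADAMTS proteases are secreted and cut proteoglycans such as versican. The tissue inhibitors (TIMPs) block the active site of MMPs, and Timp3 also blocks ADAM17 and several ADAMTS enzymes. The balance between these proteases and their inhibitors sets how much matrix around a vessel is remodelled. Sprouting vessels use these enzymes to cross their basement membrane, and in bone they also act where cartilage is replaced by marrow.

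Of the 9 members, 5 were higher in the Tie2-positive population and none was lower (0 also at an unadjusted limma p under 0.05). Timp3, Mmp2, Adamts1, Adamts9 and Timp2 rose, with log2 changes of 3.89, 3.42, 3.38, 3.20 and 2.86, or 14.8-fold, 10.7-fold, 10.4-fold, 9.20-fold and 7.24-fold on the array scale. Timp1, Mmp14, Adam15 and Adam17 did not pass, with log2 changes of 1.91, 1.10, 0.47 and 0.38. Each change is the Tie2-positive mean minus the Tie2-negative mean of quantile-normalized log2 values (n = 3 each), and a gene was called at a limma adjusted p under 0.05 over all 18193 genes. The 5 called of 9 members stand beside 4.86% of all genes called higher (2.53% lower). The members were chosen with earlier results of these data known, so the shares over all genes are no independent comparison. The median log2 change was 2.86 over the 9 members and -0.11 over all genes. In 6 of the 9 members every Tie2-positive array lay above every Tie2-negative array, which held for 15.2% of all genes. The exact two-sided permutation test over arrays gave p = 0.1 for those 6 genes (the 5 called ones and Timp1), which is the floor for 3 arrays a side, and 0.3 for Mmp14 and 0.5 for Adam15 and Adam17. Without Tie2-negative replicate 1 or 2, limma called 0 of all 18193 genes in each case (4012 and 3980 at an unadjusted p under 0.05), and so 0 of 9 members (5 and 6 at an unadjusted p under 0.05). In these fits the changes of the 5 genes ran from 2.67 to 3.86. Without Tie2-negative replicate 3 or Tie2-positive replicate 2 the called members numbered 2 in each case, Timp2 and Mmp2, while the calls over all genes numbered 378 and 504, against 1345 with all arrays. Without Tie2-positive replicate 3 the called members numbered 6, with Timp1 added, beside 1085 genes.

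**Figure D1:**
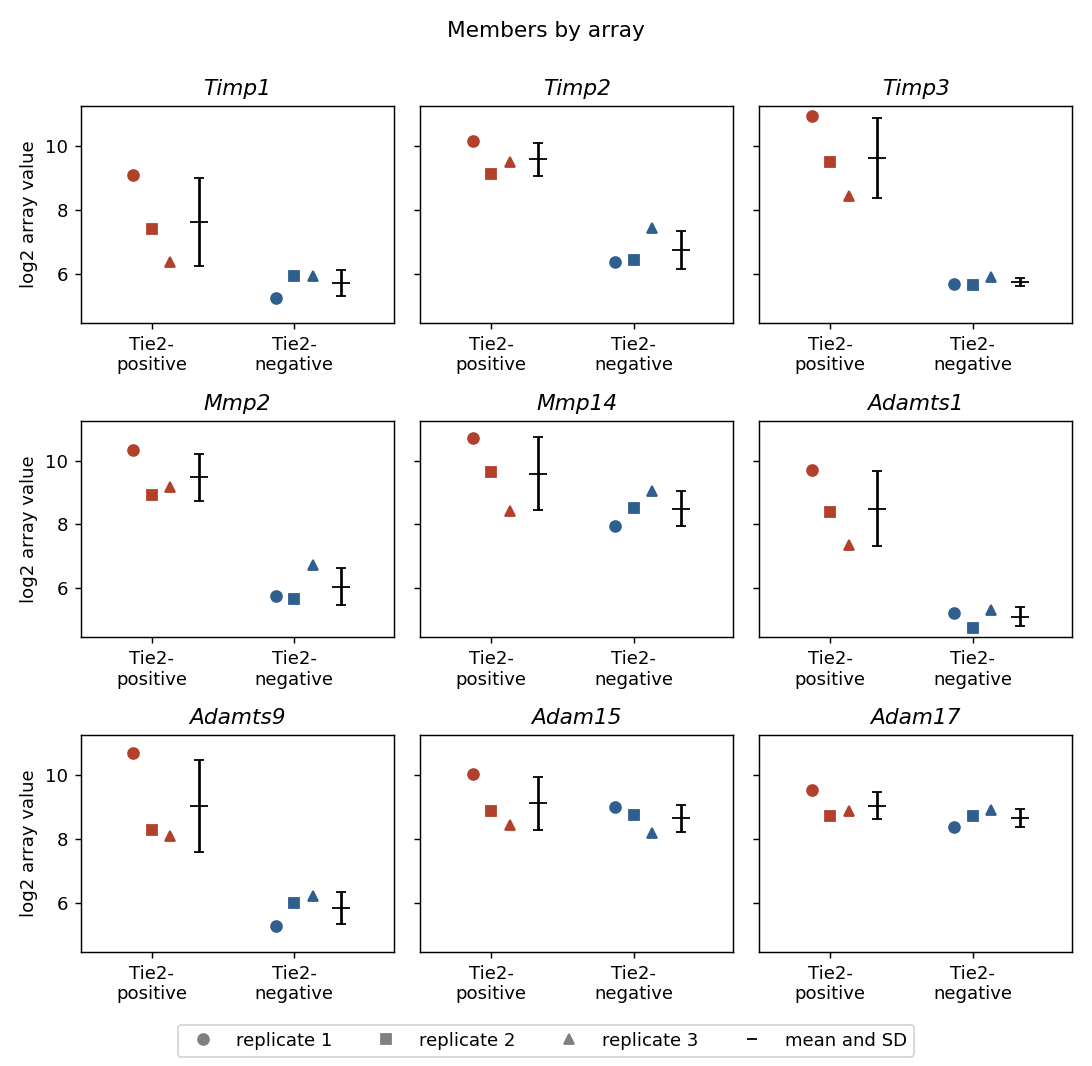
Log2 array value (vertical axis) of the 9 members, a panel each, in the 3 Tie2-positive (left, red) and the 3 Tie2-negative arrays (right, blue), with a marker shape per replicate and the mean with its SD in black. The 2 populations are apart in Timp1, Timp2, Timp3, Mmp2, Adamts1 and Adamts9 and overlap in Mmp14, Adam15 and Adam17.

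Promoters of 8 of the 9 members matched by symbol in the RefSeq table (GRCm38.p6). There was no entry for Mmp2. The 250 bases before the start of the other 4 genes that rose are shown 5′ to 3′ on the gene's strand, as the DNA next to the transcripts that moved together. Capitals mark TATAAA (the TATA box core) and GGGCGG (the GC box core), on either strand.
Timp2 (chr11:118355412-118355661, minus strand): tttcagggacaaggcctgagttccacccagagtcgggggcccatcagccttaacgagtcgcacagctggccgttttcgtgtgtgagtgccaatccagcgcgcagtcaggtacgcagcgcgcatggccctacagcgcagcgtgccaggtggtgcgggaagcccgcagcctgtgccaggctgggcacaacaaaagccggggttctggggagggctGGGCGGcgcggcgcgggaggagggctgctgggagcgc
Timp3 (chr10:86300162-86300411, plus strand): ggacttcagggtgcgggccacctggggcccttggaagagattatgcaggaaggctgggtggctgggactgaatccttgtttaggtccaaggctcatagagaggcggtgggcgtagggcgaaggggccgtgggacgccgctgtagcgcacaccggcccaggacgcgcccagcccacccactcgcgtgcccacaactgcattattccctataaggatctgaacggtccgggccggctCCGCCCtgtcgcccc
Adamts1 (chr16:85803114-85803363, minus strand): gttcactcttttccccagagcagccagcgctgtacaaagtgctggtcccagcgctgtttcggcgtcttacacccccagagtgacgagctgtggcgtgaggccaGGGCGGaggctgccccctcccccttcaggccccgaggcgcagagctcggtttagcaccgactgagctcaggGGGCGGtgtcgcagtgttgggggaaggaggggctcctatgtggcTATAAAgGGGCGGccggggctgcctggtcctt
Adamts9 (chr6:92943535-92943784, minus strand): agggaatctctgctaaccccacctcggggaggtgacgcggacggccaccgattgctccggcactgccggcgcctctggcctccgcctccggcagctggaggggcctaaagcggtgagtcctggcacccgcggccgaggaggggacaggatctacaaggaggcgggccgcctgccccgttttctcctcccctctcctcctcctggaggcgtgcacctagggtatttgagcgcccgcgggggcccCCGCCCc
GGGCGG was in all 8 promoters and in 32.7% of 32851 promoter windows of the same length. It occurred 3 times in Adamts1, and 1 time each in Timp2, Timp3 and Adamts9. The promoters of members that did not pass held it too, with 2 copies in Mmp14 and 1 each in Timp1, Adam15 and Adam17. TATAAA was in Adamts1 alone among the 8, from 32 to 27 bases before the start, and in 12.4% of all windows. The AP-1 element TGANTCA and its variant TGANTAA were in 0 of the 8 windows, against 6.75% and 9.38% of all windows. No pair of these matches overlapped, and the motifs were chosen after the member list was known. The GC content of the 8 windows ran from 54.4% in Timp1 to 71.2% in Adamts9, with a median of 52.4% over all windows. These matches describe letters only, and a missing match says only that the letters are not in this window.

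Among the inhibitors, Timp3 had the largest change. Timp3, the inhibitor that stays bound to the matrix and also blocks ADAM17 and several ADAMTS enzymes, had log2 values of 10.94, 9.50 and 8.43 in Tie2-positive replicates 1, 2 and 3, against 5.68, 5.64 and 5.88 in Tie2-negative replicates 1, 2 and 3. The lowest Tie2-positive array stood well above all Tie2-negative arrays, and the Tie2-positive arrays differed among themselves far more than the Tie2-negative ones. The means were 9.62 ± 1.26 (SD, n = 3) and 5.74 ± 0.13 (SD, n = 3), a change of 3.89 ± 0.59 (SE; limma adjusted p = 0.0176). The call was lost, at an adjusted p of 0.0528, when Tie2-positive replicate 2 was dropped (a change of 3.95), and at 0.0604 when Tie2-negative replicate 3 was dropped (3.96).

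Timp2, which both inhibits Mmp2 and, on the cell surface, helps Mmp14 to activate its proenzyme, had log2 values of 10.15, 9.11 and 9.50 in Tie2-positive replicates 1, 2 and 3, against 6.35, 6.42 and 7.42 in Tie2-negative replicates 1, 2 and 3. Tie2-negative replicate 3 was the highest of its population, yet below every Tie2-positive array. The means were 9.59 ± 0.52 (SD, n = 3) and 6.73 ± 0.59 (SD, n = 3), and Timp2 rose by 2.86 ± 0.39 (SE; limma adjusted p = 0.0143). Without Tie2-negative replicate 1 or 2 its change was 2.67 and 2.70 and did not pass (adjusted p = 0.0760 and 0.0755).

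Timp1, the soluble inhibitor whose transcript is induced by cytokines and growth factors, had log2 values of 9.09, 7.38 and 6.37 in Tie2-positive replicates 1, 2 and 3, against 5.23, 5.94 and 5.94 in Tie2-negative replicates 1, 2 and 3. The populations did not overlap, but Tie2-positive replicate 3 came within a small step of the highest Tie2-negative arrays. The change of 1.91 ± 0.65 (SE, 95% interval 0.36 to 3.46) did not pass in limma (adjusted p = 0.120). It passed without Tie2-positive replicate 3 (a change of 2.53, adjusted p = 0.0482) and with array weights (1.51, adjusted p = 0.0224).

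The gelatinase Mmp2 rose and its membrane-bound activator Mmp14 did not pass. Mmp2, which cuts type IV collagen and denatured collagens, had log2 values of 10.32, 8.92 and 9.17 in Tie2-positive replicates 1, 2 and 3, against 5.75, 5.67 and 6.73 in Tie2-negative replicates 1, 2 and 3. The populations were far apart, and Tie2-negative replicate 3 was again the highest of its population. The means were 9.47 ± 0.74 (SD, n = 3) and 6.05 ± 0.59 (SD, n = 3), a change of 3.42 ± 0.46 (SE; limma adjusted p = 0.0132). Without Tie2-negative replicate 1 or 2 the change was 3.27 and 3.23 and did not pass (adjusted p = 0.0742 and 0.0715).

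Mmp14, a membrane-anchored collagenase, had log2 values of 10.72, 9.63 and 8.42 in Tie2-positive replicates 1, 2 and 3, against 7.93, 8.50 and 9.04 in Tie2-negative replicates 1, 2 and 3. Tie2-positive replicate 3 lay below Tie2-negative replicates 2 and 3, so the populations overlapped. The change was 1.10 ± 0.59 (SE; limma adjusted p = 0.261) with a 95% interval from -0.31 to 2.51. The difference between the changes of Mmp2 and Mmp14 was not tested.

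Both secreted ADAMTS members rose. Adamts1, which cuts versican and aggrecan and is induced in endothelial cells, had log2 values of 9.70, 8.39 and 7.36 in Tie2-positive replicates 1, 2 and 3, against 5.23, 4.76 and 5.31 in Tie2-negative replicates 1, 2 and 3. Every Tie2-positive array was well above the Tie2-negative ones. The means were 8.48 ± 1.18 (SD, n = 3) and 5.10 ± 0.30 (SD, n = 3), a change of 3.38 ± 0.56 (SE; limma adjusted p = 0.0215). It did not pass when Tie2-positive replicate 2 was dropped (3.43, adjusted p = 0.0619) or Tie2-negative replicate 3 (3.49, adjusted p = 0.0678).

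Adamts9, another versican-cutting protease, had log2 values of 10.68, 8.27 and 8.10 in Tie2-positive replicates 1, 2 and 3, against 5.25, 5.98 and 6.21 in Tie2-negative replicates 1, 2 and 3. Tie2-positive replicate 1 stood apart from the other Tie2-positive arrays, and the populations did not overlap. The means were 9.02 ± 1.44 (SD, n = 3) and 5.81 ± 0.50 (SD, n = 3), a change of 3.20 ± 0.70 (SE; limma adjusted p = 0.0432). This was the call nearest to the threshold. It was lost without Tie2-positive replicate 2 (3.58, adjusted p = 0.0740) and without Tie2-negative replicate 3 (3.40, adjusted p = 0.101), and over the mean of its 3 probe sets the change was 1.84 (adjusted p = 0.0568).

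The membrane proteases Adam15 and Adam17 overlapped between the populations. Adam17, the main sheddase of tumour necrosis factor and of ligands of the epidermal growth factor receptor, had log2 values of 9.53, 8.72 and 8.88 in Tie2-positive replicates 1, 2 and 3, against 8.36, 8.72 and 8.90 in Tie2-negative replicates 1, 2 and 3. Only Tie2-positive replicate 1 lay outside the Tie2-negative range. The change was 0.38 ± 0.29 (SE, 95% interval -0.31 to 1.08; limma adjusted p = 0.404).

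Adam15, an adhesion-type ADAM of endothelial junctions, had log2 values of 10.04, 8.88 and 8.43 in Tie2-positive replicates 1, 2 and 3, against 9.003, 8.76 and 8.17 in Tie2-negative replicates 1, 2 and 3. The arrays of both populations were mixed in their order apart from Tie2-positive replicate 1. The change was 0.47 ± 0.45 (SE, 95% interval -0.60 to 1.55; limma adjusted p = 0.506), and its direction depended on the probe set.

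The other probe sets of a gene did not always follow the one used, which is the brightest of the gene on average across the 6 arrays. In a fit over all 45037 probe sets, 11 of the 27 member probe sets were called higher and 0 lower, beside 3.39% and 1.6% of all probe sets. Tie2-positive arrays lay above all Tie2-negative arrays in 15 of the 27 member probe sets and below them in 0. For genes, with 1 probe set each, the share above was 15.2%, and over all probe sets it was not computed. All 4 Timp3 probe sets were among the 15, and 3 were called, with log2 changes from 1.10 to 3.89. Both Mmp2 probe sets were called (3.42 and 2.61), as were 2 of 3 for Adamts9 (3.20 and 2.40), whose remaining probe set gave -0.09. Of 6 Timp2 probe sets, 3 were called (2.86, 3.54 and 2.00) and the other 3 gave 0.53, 0.17 and -0.30. None of the 3 Mmp14 probe sets was called (1.10, 0.62 and -0.25) and none of the 3 for Adam17 (0.38, 0.11 and 0.03). The 4 Adam15 probe sets disagreed in sign, with changes of 1.57 in a probe set whose populations did not overlap, 0.47 in the one used, and -0.19 and -0.21 in the other 2, none of them called (limma adjusted p from 0.142 to 0.644). Timp1 and Adamts1 had 1 probe set each.

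**Figure D2:**
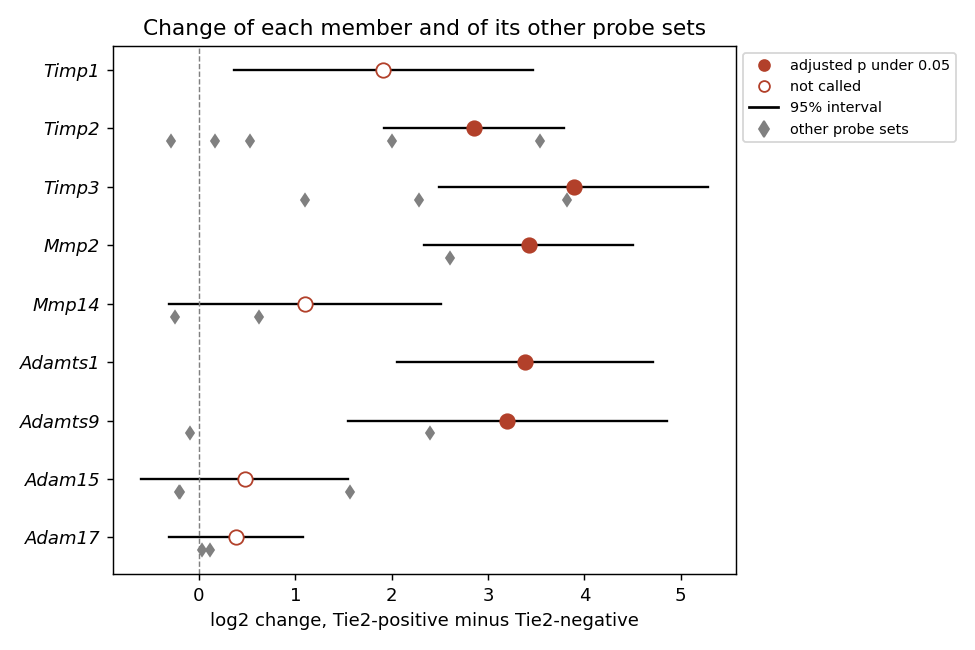
Log2 change, Tie2-positive minus Tie2-negative (horizontal axis), of the probe set used for each member (circle, filled where the limma adjusted p was under 0.05) with its 95% interval (line), and of the gene's other probe sets (grey diamonds). The filled circles lie between 2.86 and 3.89, and Timp2, Mmp14, Adamts9 and Adam15 have other probe sets below 0.

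The Tie2-positive arrays were not alike in these genes. Tie2-positive replicate 1 was the highest of its population in 9 of 9 members, against 41.7% of all genes, and the median of the members was 10.15, 8.88 and 8.43 in Tie2-positive replicates 1, 2 and 3, against 5.75, 5.98 and 6.73 in Tie2-negative replicates 1, 2 and 3. Within the Tie2-negative population replicate 3 was the highest in 7 of 9 members, against 35.9% of all genes. Markers of cell types also differed among these arrays, not all in the order of the members. All 10 endothelial markers were also highest in Tie2-positive replicate 1, where their summed level was 14.90 on the log2 scale, against 13.65 and 12.25 in Tie2-positive replicates 2 and 3 and 9.92 to 10.56 in the Tie2-negative arrays. That array was also the highest of its population in 7 of 8 osteoblast and stromal markers and 5 of 6 chondrocyte markers. The same held for 2 of 6 pericyte and smooth muscle and 2 of 7 B-lineage markers, and for 0 erythroid, neutrophil and monocyte, or megakaryocyte markers. All 10 neutrophil and monocyte markers were highest in Tie2-positive replicate 3, with summed log2 levels of 9.41, 15.06 and 16.65 in Tie2-positive replicates 1, 2 and 3, against 9.85, 11.59 and 12.35 in Tie2-negative replicates 1, 2 and 3. The summed level of 5 megakaryocyte markers was 9.93, 13.05 and 12.47 in the Tie2-positive arrays, against 8.99 to 9.16 in the Tie2-negative ones. Erythroid markers (7, summed log2 level 8.54 to 12.10 in the Tie2-positive and 14.14 to 15.46 in the Tie2-negative arrays) and B-lineage markers (7, 8.92 to 9.48 against 11.09 to 13.42) ran the other way. Osteoblast and stromal markers (8) had summed log2 levels of 10.36, 9.78 and 10.55 in Tie2-positive replicates 1, 2 and 3, against 9.49 to 9.73. Col1a2 was the brightest of the 8, and the list medians overlapped (6.79, 5.81 and 5.56 against 5.87, 5.57 and 5.63). The median log2 change of that list was 0.19. Pericyte and smooth muscle markers (6) had sums of 10.21, 10.69 and 10.80 in the same order, against 9.07 to 9.91. In either list 0 genes were called (0 and 2 at an unadjusted limma p under 0.05). Chondrocyte markers (6) overlapped, with sums of 8.05 to 8.82 against 8.56 to 8.74. The log2 scale of the table has no zero, and detection calls were not used here, so no marker can be called absent. Their part in the members' changes was not tested, and a smaller share of cells of a type cannot be told apart from less RNA per cell. Of the gate antigens, Tek was higher by 6.07 and Itgav by 1.76, in the direction of the titles, while Ptprc, the gene of the excluded CD45, had log2 values of 4.87, 9.95 and 11.23 in Tie2-positive replicates 1, 2 and 3, against 9.42 to 10.41 in the Tie2-negative arrays.

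The members' changes were also computed without the Tie2-positive arrays with high neutrophil markers and without Tie2-positive replicate 1. The fit without Tie2-positive replicates 2 and 3 was added once the data had been seen, and it takes the spread of the single remaining Tie2-positive array from the Tie2-negative ones. In it 8 of 9 members were called higher in limma, beside 11% of all genes. Timp3 then changed by 5.20, Timp1 by 3.39, Mmp14 by 2.23 and Adam15 by 1.40, and Adam17 (0.88) did not pass. Since the remaining array was the highest of its population in all 9 members, larger changes there follow from that order, and they say nothing of the neutrophil markers. Without Tie2-positive replicate 1 instead, the same 5 members as with all arrays were called, beside 8.22% of all genes, with Timp3 at 3.23, Mmp2 at 3.00, Adamts1 at 2.77, Timp2 at 2.57 and Adamts9 at 2.37. Timp1 was then at 1.17, Mmp14 at 0.54, Adam17 at 0.14 and Adam15 at 0.01, none of them called.

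**Figure D3:**
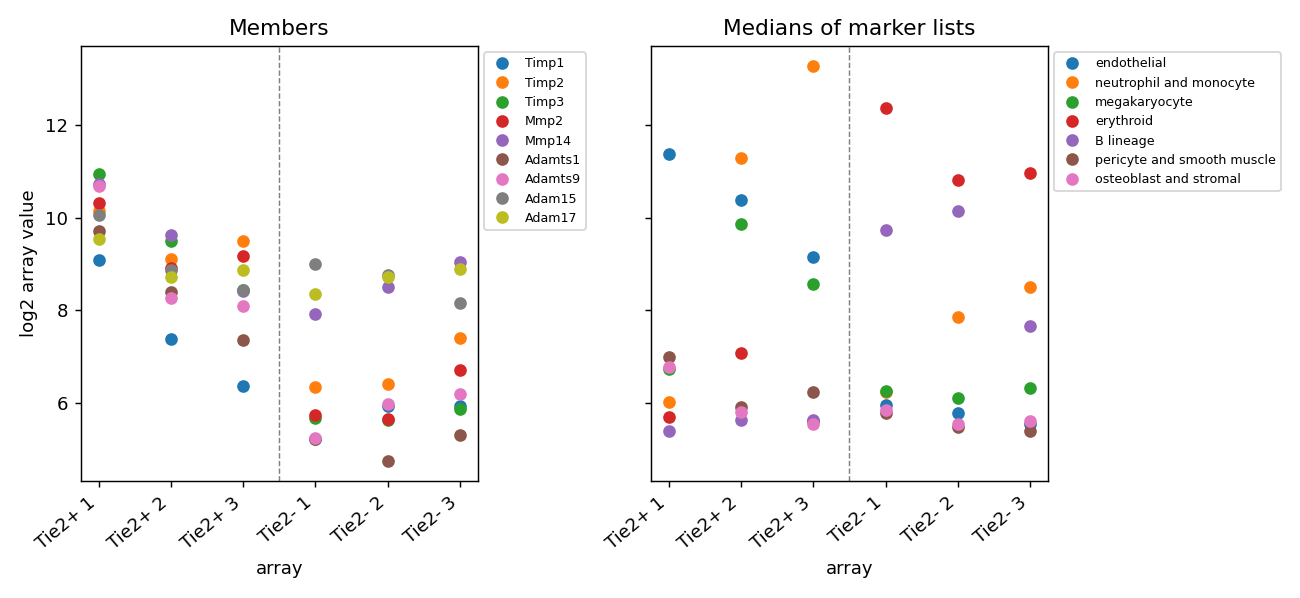
Log2 array values of the 9 members (left) and the medians of 7 marker lists (right) in each of the 6 arrays, Tie2-positive arrays left of the dashed line and Tie2-negative arrays right of it. Tie2-positive replicate 1 has the highest member values and the highest endothelial, osteoblast and stromal, and pericyte and smooth muscle medians. Summed levels, not drawn here, order 2 of these lists otherwise. Among the Tie2-positive arrays the pericyte and smooth muscle sum was lowest in replicate 1. The osteoblast and stromal sum was highest in replicate 3. Tie2-positive replicates 2 and 3 have the high neutrophil and monocyte medians.

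The other genes of the protease families are read against the same shares, 4.86% of all genes called higher and 2.53% called lower. Of 16 other measured MMPs, 0 were called in either direction (limma; 1 of them, Mmp7, had an unadjusted p under 0.05), with log2 changes from -0.48 to 0.12. Mmp24 and Mmp23, the 2 with the highest means, gave -0.13 and -0.39. Mmp9 and Mmp8, enzymes of neutrophil granules that were named after their values were seen, gave -0.39 and -0.39. Mmp9 had log2 values of 5.78, 5.77 and 6.89 in Tie2-positive replicates 1, 2 and 3, against 6.53, 6.41 and 6.67 in Tie2-negative replicates 1, 2 and 3. Mmp8 had log2 values of 4.87, 4.59 and 5.88 in Tie2-positive replicates 1, 2 and 3, against 4.88, 5.61 and 6.02 in Tie2-negative replicates 1, 2 and 3. Both genes were highest of the Tie2-positive arrays in replicate 3 and of the Tie2-negative arrays in replicate 3, and the populations overlapped.

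Among 11 other ADAMs, 1 rose and 0 fell. Adam9, a widely expressed sheddase, had log2 values of 9.88, 9.37 and 8.67 in Tie2-positive replicates 1, 2 and 3, against 6.09, 6.86 and 6.92 in Tie2-negative replicates 1, 2 and 3, and rose by 2.68 ± 0.38 (SE; limma adjusted p = 0.0149). Adam10, the sheddase of Notch receptors and cadherins, named after its value was seen, gave -0.13 ± 0.32 (SE). Among 13 other ADAMTS genes, 2 rose and 0 fell. They were Adamts5 and Adamts4, the aggrecan-cutting enzymes that Timp3 blocks, which rose by 3.12 ± 0.49 (SE) and 1.46 ± 0.23 (SE). Of the 7 ADAMTS-like genes, whose products resemble ADAMTS proteins without the protease domain, 0 were called in limma (0 also had an unadjusted p under 0.05), with Adamtsl2 at -0.11 and Adamtsl5 at -0.44. The ADAM count was 0 when Tie2-positive replicate 2 was dropped and 2 when Tie2-positive replicate 1 or 3 was, and the ADAMTS count was 0 when Tie2-negative replicate 3 was dropped and 4 when Tie2-positive replicate 1 was.

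Among 7 other inhibitors, 1 rose and 0 fell. Reck, a membrane-anchored inhibitor of MMPs, had log2 values of 9.09, 7.21 and 8.11 in Tie2-positive replicates 1, 2 and 3, against 5.35, 5.18 and 5.65 in Tie2-negative replicates 1, 2 and 3, and rose by 2.74 ± 0.46 (SE; limma adjusted p = 0.0218). The call was lost when Tie2-negative replicate 3 was dropped. Timp4, the remaining tissue inhibitor, gave 0.12 ± 0.52 (SE), with the highest value, 7.56, in Tie2-positive replicate 1 and the others between 5.53 and 6.29.

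Of 18 genes that activate or carry these proteases, 2 rose and 2 fell. Tspan14, a tetraspanin that escorts Adam10, rose by 1.79 ± 0.28 (SE), and Plaur, the urokinase receptor, by 1.28 ± 0.27 (SE). Tspan33, another tetraspanin of that group, fell by 4.19 ± 0.75 (SE) and Rhbdf2, an iRhom that carries Adam17 to the surface, fell by 0.89 ± 0.20 (SE; limma adjusted p = 0.0483). Its relative Rhbdf1 gave 1.97 ± 0.50 (SE; limma adjusted p = 0.0622) with Tie2-positive arrays above all Tie2-negative ones (its naming followed a look at its value). The counts of risers and fallers were 0 and 0 when Tie2-negative replicate 3 was dropped, 1 and 1 when Tie2-positive replicate 2 was, 6 and 2 when Tie2-positive replicate 1 was, and 2 and 0 when Tie2-positive replicate 3 was. Of 10 measured substrates of Adam17 shedding, 2 rose and 0 fell, namely the adhesion molecule Vcam1 (6.21) and the tumour necrosis factor receptor Tnfrsf1a (2.79 ± 0.48, SE), a count that was 1 when Tie2-positive replicate 2 or Tie2-negative replicate 3 was dropped and 4 when Tie2-positive replicate 1 was. Of 16 matrix substrates, 6 rose and 0 fell, with the basement membrane genes Col4a1, Nid1 and Col4a2 leading (6.32, 6.21 and 5.11). Hspg2, also a basement membrane gene of this list and named after its value was seen, gave -0.30 ± 0.27 (SE) and was not called. Vcan, the versican cut by Adamts1 and Adamts9, was among the 6, and is named because of its value. Of its 8 probe sets only the one used is shown, and the same holds for every other related gene with several probe sets. Unlike Adamts1 and Adamts9, Vcan was highest of the Tie2-positive arrays in replicate 3. Vcan had log2 values of 7.58, 7.14 and 8.87 in Tie2-positive replicates 1, 2 and 3, against 4.34, 3.78 and 5.79 in Tie2-negative replicates 1, 2 and 3, and rose by 3.23 ± 0.62 (SE; limma adjusted p = 0.0319). Over all 98 measured genes of the 8 lists, 14 rose and 2 fell, beside 4.86% and 2.53% of all genes, and the median log2 change was 0.03, against -0.11 over all genes. In the fits that left Tie2-negative replicate 1 or 2 out, these calls were lost with those of all other genes. Other left-out arrays shifted the calls over all genes too. Genes called higher numbered 884 with all arrays. They numbered 1496 and 375 without Tie2-positive replicate 1 and 2, and 860 and 251 without replicate 3 of the Tie2-positive and Tie2-negative arrays. Matrix substrates called higher then numbered 7, 4, 6 and 4, in that order.

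**Figure D4:**
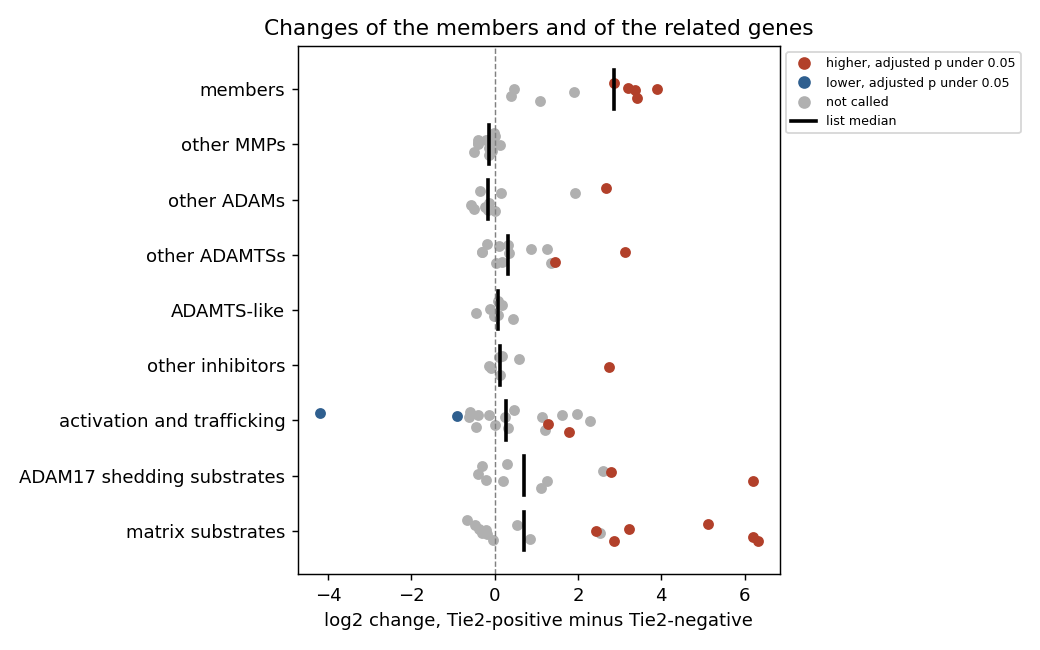
Log2 change, Tie2-positive minus Tie2-negative (horizontal axis), of each measured gene in the member list and the 8 lists of related genes (rows), coloured by its limma call, with the median of each list as a black bar. The 16 other MMPs lie between -0.48 and 0.12 with 0 called, and the members have a median of 2.86.

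For each member, the gene with the nearest pattern was taken from 9094 other genes with a mean above the median, by the Euclidean distance between the 6 array values after each gene was centred on its own mean. These pairs describe 6 arrays only. Timp3 was nearest to Dusp3 (distance 0.40, own log2 change 3.69), Timp2 to Pmp22 (0.50, 3.08) and Timp1 to Niban2 (0.32, 2.06). Mmp2 was nearest to Myadm (0.31, 3.39) and Mmp14 to Tmem37 (0.45, 1.06). Adamts1 was nearest to S100a16 (0.26, 3.20) and Adamts9 to Ehd2 (0.35, 3.41). Adam15 was nearest to Dusp22 (0.11, 0.44) and Adam17 to Pcgf3 (0.13, 0.37).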

How the data were processed

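The authors deposited 1 log2 value per probe set and array, from 2.56 to 14.78, for 45101 probe sets; that the scale is log2 was read from the range. How these values were summarised and normalized is not stated in the labels or the table. Per the labels' protocols, RNA was amplified in a double round, hybridised to Affymetrix 430 2.0 arrays and scanned with GCOS 1.1.1. Array controls (64) were left out. Among 45037 remaining probe sets, 34945 had a single gene symbol, of which 34741 were found by gene ID in RefSeq (GRCm38.p6, 0 symbols changed), 932 carried several and 9160 were unnamed here. Each of 18193 genes was represented by its probe set with the highest mean. The arrays' 75th percentiles differed by up to 0.27, above the limit of 0.1, so the values were quantile normalized. The populations were compared with limma 3.58.1 in R 4.3.3 (lmFit and trended eBayes on the 6 arrays without covariates). P-values are two-sided and Benjamini-Hochberg adjusted across the 18193 genes. Precision is limited by the number of arrays. The procedure was tested on simulated data.

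The members, the 8 lists of related genes and the marker lists were chosen with earlier results of these data known. Genes named from a list were up to 3 called genes per direction with the largest changes, or the 2 with the highest means where none was called. Timp4, Mmp7 and the genes marked as named for or after their values fall outside this rule. The alternatives were the replicate block, other normalizations, filters, probe set choices and variance models, array weights and leaving out arrays. Offsets meant for linear values were not run on these log values.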

Additional observations from a re-analysis of the deposited data

How the results depend on the processing

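No member changed direction in 16 of 17 alternatives; the exception was Adam15, which gave -0.21 without probe sets ending in x_at or s_at. The number of members called higher was 5 with all arrays, 0 with the replicate block (0 genes of all, smallest adjusted p 0.0521, 5080 at an unadjusted p under 0.05), 0 to 6 with 1 array left out, and 8 without Tie2-positive replicates 2 and 3; it was 4 to 6 under the others, and the number called lower was 0 throughout. Same-numbered samples deviated together with correlations of 0.14, 0.01 and 0.19, not all over 0.1. Tie2-positive replicates 1 and 3 each correlated best with their own number. Across numbers, Tie2-positive 1 with Tie2-negative 3 gave -0.16, and Tie2-positive 3 with Tie2-negative 1 gave -0.16. Tie2-positive replicate 2 correlated best with Tie2-negative replicate 3 (0.06). The main fit took no pairing, and these values do not settle whether the samples are paired. Over all genes, 884 were called higher and 461 lower with all arrays, and 1345 calls in all became 4639 with array weights, which gave Tie2-positive replicate 2 the largest weight (5.83), 0 when Tie2-negative replicate 1 or 2 was dropped, 378 when Tie2-negative replicate 3 was, 504 when Tie2-positive replicate 2 was and 2148 when Tie2-positive replicate 1 was. Among related genes, the activation and trafficking genes called higher numbered 5, not 2, with the values as deposited or with arrays centred on their medians, and 6 with array weights, which also called 4 rather than 2 other ADAMTS genes and 4 rather than 2 Adam17 substrates higher, and 2 other ADAMs, 2 matrix substrates and 1 other MMP lower, in place of 0. Activation and trafficking genes called lower numbered 1, not 2, with arrays centred on their medians, with all probe sets tested or with robust eBayes. They numbered 4 with array weights. The cause of these shifts was not tested. Detection calls were not used here, and how far background signal limits the size of the large changes was not tested.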
